A study of Mus musculus with 7 samples.

Results

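The cytosolic ribosomal proteins are described here as the targets whose symbols carry the Rpl or Rps stem followed by a number, together with Rplp0, Rplp1, Rplp2 and Rpsa, and without the Rps6k kinases. This name rule found 81 of the 19951 gene targets in the deposited table, and it used no measured value. They comprised 31 proteins of the small subunit, 40 of the large subunit, 3 of the stalk and 7 second copies, which are paralogues of a ribosomal protein gene (Rpl3l, Rpl7l1, Rpl10l, Rpl22l1, Rpl32l, Rpl39l and Rps27l). A filtered table used for testing held 13095 genes and 78 of the 81, all but Rpl3l, Rpl10l and Rpl39l.

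RNA was counted in 6 areas of fixed mouse liver that were stained for Albumin, the main plasma protein made by hepatocytes, and not marked by CLEC4F, a Kupffer cell protein. Of these areas, 3 were from 24-week-old mice on the FFD diet and 3 from 24-week-old mice on the NCD diet, with the diet names as the labels give them. All 6 were marked WT in the comments of the segment table, lay on 1 slide and came from 3 mice per diet according to the series text, which does not tie an area to a mouse. Probes of the GeoMx mouse whole transcriptome panel were used, whose barcodes are cut off by light within an area and then sequenced.

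Ribosomes translate all nuclear-encoded messages. The small subunit reads the message, the large subunit joins amino acids, and the stalk of the large subunit recruits the elongation factors that drive each step. Each ribosome holds its proteins in fixed numbers, and their messages begin with a pyrimidine tract through which the growth pathway mTORC1 controls their translation. In hepatocytes ribosomes bound to the endoplasmic reticulum make the secreted plasma proteins.

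The tested genes held 2484982, 2980639 and 2527499 counts in FFD 1 to 3, against 2069102, 2417342 and 3491371 in NCD 1 to 3. The sum of counts was 1.01 to 1.51 times the deduplicated reads in FFD regions and 0.996 to 0.997 times in NCD regions. FFD regions held 1077 to 1264 nuclei and NCD regions 1747 to 1940. The negative probes, which match no transcript, read 9.10 to 10.9 CPM (counts per 1000000 of the scaled library size) in FFD regions and 12.7 to 14.0 CPM in NCD regions. A gene is called above the detection limit where it exceeded 2 times that level in its region. The 6 tested hepatocyte markers were above it in all 6 regions, and their summed level was 43784 to 72214 CPM in FFD regions, against 85391 to 123052 CPM in NCD regions. Of those 6 markers 3 were lower in FFD, which were Apoa1, Fgb and Cps1, beside 11.1% of all tested genes. Alb itself was at 27971, 28938 and 50062 CPM in FFD 1 to 3, against 56816, 61524 and 84772 CPM in NCD 1 to 3, and did not pass the test (adjusted p = 0.0648, edgeR's quasi-likelihood test with Benjamini-Hochberg adjustment).

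Few ribosomal protein messages passed the test between the diets. Under upper quartile scaling, 2 of the 78 tested members were higher in FFD regions (Rps14 and Rps29), 3 were lower (Rpl22l1, Rpl28 and Rps2) and 73 did not pass an adjusted p of 0.05. Over all 13095 tested genes the same test called 5.94% higher and 11.1% lower. The shares of the members called in either direction were thus no larger than these. At an unadjusted p under 0.05 there were 9 members higher and 4 lower, with 10.6% and 22.5% of all tested genes. DESeq2 called 7 members higher and 0 lower, with 6.40% and 3.99% of the genes to which it gave an adjusted p. The median log2 fold change of the members, FFD over NCD, was 0.09, against -0.11 for all tested genes, and 57 members had a positive value and 21 a negative one. Values of the members spanned -0.60 to 0.47, with 55 of 78 within 0.25 of 0 and 1, Rpl22l1, beyond 0.5. Of all 13095 tested genes, 6714 were within 0.25 of 0 and 2374 beyond 0.5. The standard deviation of the members was 0.22 on the log2 scale, against 0.42 over all tested genes. That narrow spread was not particular to the members. It was 0.23 over the mitochondrial ribosomal proteins and 0.22 over the initiation factors described below. In these areas, which hold many cells, fewer cells of a type and less RNA per cell cannot be told apart.

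**Figure D1:**
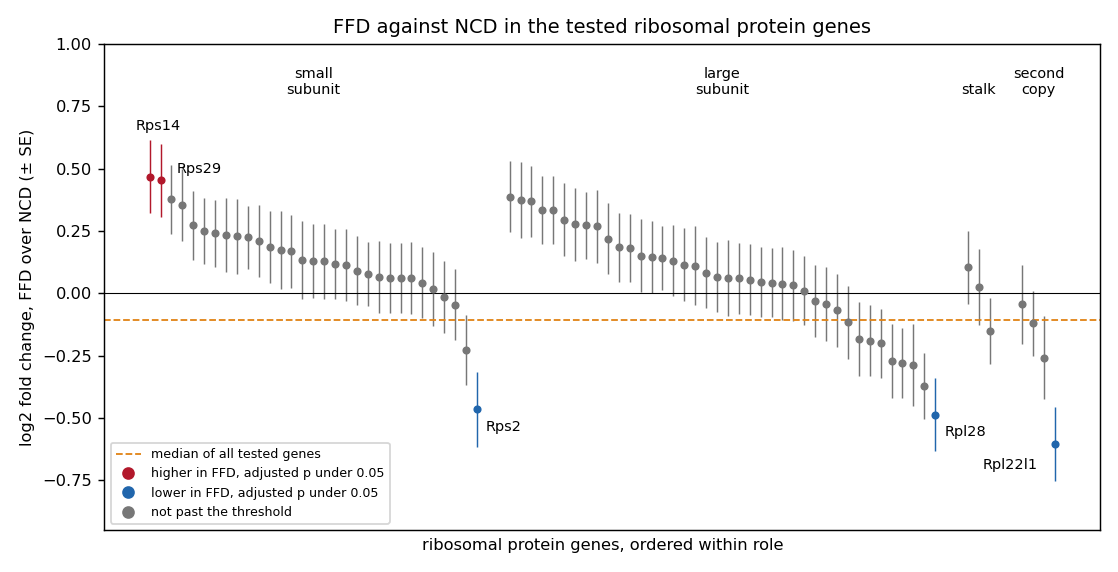
Log2 fold change, FFD over NCD, of the 78 tested ribosomal protein genes on the vertical axis, with the approximate standard error as bars, ordered by value within each role along the horizontal axis. Red marks the 2 genes higher in FFD and blue the 3 lower, and the dashed line is the median of all tested genes at -0.11, below which few small subunit genes lie.

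The ranges of single members showed more order than the calls. In 25 members every FFD region was above every NCD region, against 12.2% of all tested genes, and in 10 members every FFD region was below every NCD region, against 24.5% of all tested genes. The other 43 members overlapped between the diets. Members share their 6 regions, so that these counts are not independent of each other. Detection did not limit the comparison for most members, since 76 of the 78 were above the limit in all 6 regions. Of all 13095 tested genes, 6600 were above it in all 6 regions. The median coefficient of variation among replicates was 7.97% in FFD regions and 3.89% in NCD regions for the members, and 11.9% and 11.6% for all tested genes. FFD 1 had the lowest value of the 3 FFD regions in 69 of 78 members, or 88.5%, and FFD 1 was the lowest in 30.1% of all tested genes. FFD 2 was the highest FFD region in 51 members. Without FFD 1 the median of the members was 0.14, with 3 higher and 1 lower, and without FFD 2 it was 0.05, with 0 higher and 1 lower. Of all 13095 tested genes, 645 were higher and 1105 lower without FFD 1, and 592 and 821 without FFD 2.

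**Figure D2:**
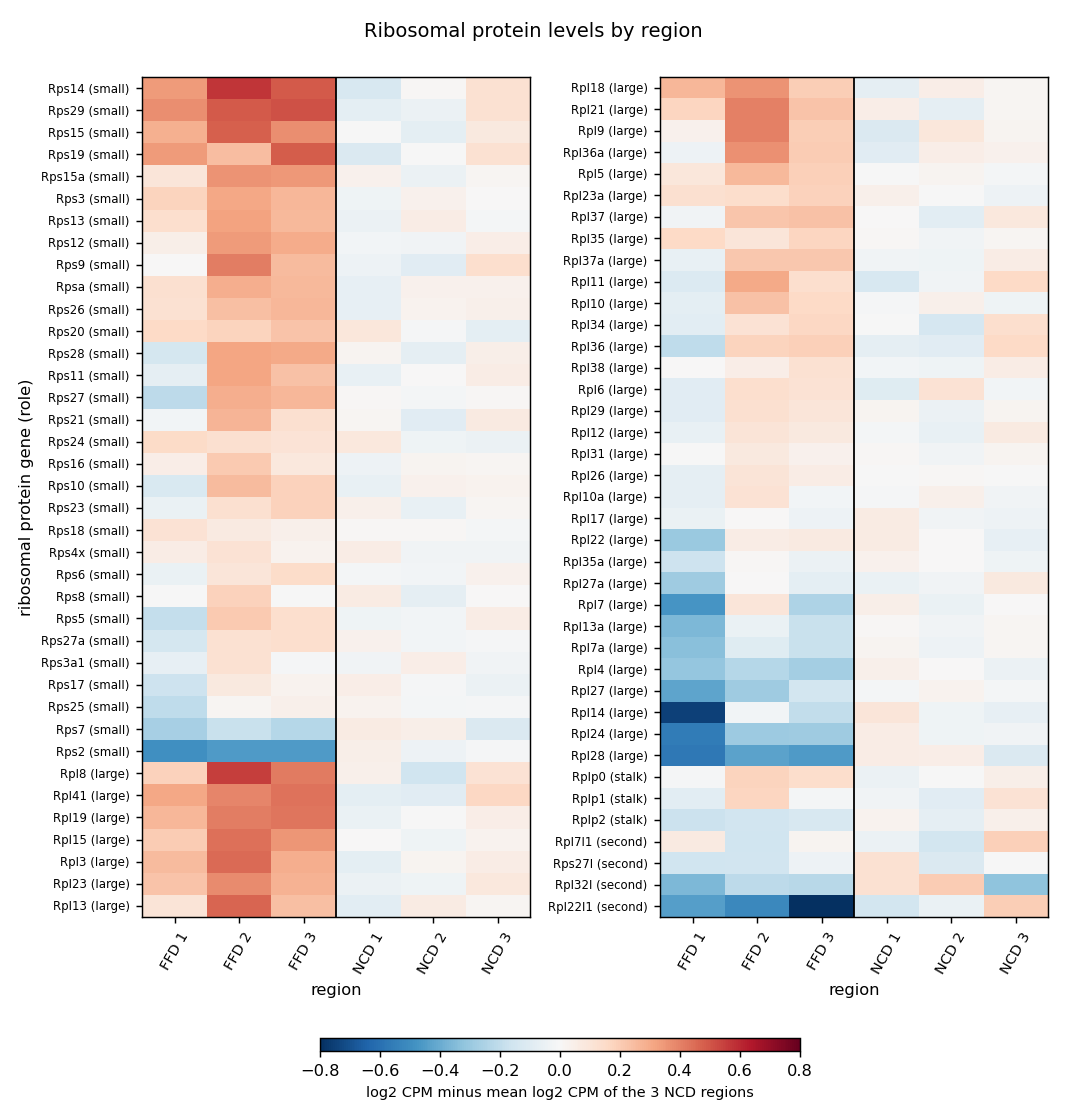
Level of 77 of the 78 tested ribosomal protein genes (rows, with the role in parentheses) in the 3 FFD and 3 NCD regions (columns), as log2 CPM minus the mean log2 CPM of the NCD regions. Rows run from the most positive to the most negative fold change within each role, and the FFD 1 column is the palest or bluest of the 3 FFD columns in most rows.

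Summed over all 81 targets, the ribosomal proteins took 3.28%, 3.79% and 3.39% of all gene counts in FFD 1 to 3, against 3.10%, 3.05% and 2.94% in NCD 1 to 3. All 3 FFD regions were above the NCD regions, with means of 3.49 ± 0.273% in FFD and 3.03 ± 0.0822% in NCD (SD, n = 3 each). The denominators differed between the diets as well. Alb alone took 3.38 ± 1.03% of counts in FFD regions and 5.88 ± 1.07% in NCD regions, and the 10 most abundant genes took 9.76 ± 1.37% and 15.1 ± 0.892%, in the same order of diets. With those 10 genes left out of the denominator the shares were 3.86 ± 0.279% in FFD and 3.57 ± 0.0598% in NCD, and the ranges overlapped. On the upper quartile scale the summed level was 36458 ± 2289 CPM in FFD regions and 34702 ± 415 CPM in NCD regions, a ratio of 1.05 with overlapping ranges.

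The 31 small subunit genes had a median log2 fold change of 0.13, with 27 positive and 4 negative values. By the test 2 were higher and 1 was lower, beside 5.94% and 11.1% of all tested genes. In 13 of them all FFD regions were above all NCD regions and in 2 all were below, beside 12.2% and 24.5% of all tested genes. Rps14, a small subunit protein whose loss of a copy marks human 5q- syndrome, lies on GRCm38 chr18:60774596-60778546. It was at 453, 532 and 503 CPM in FFD 1 to 3, against 327, 359 and 389 CPM in NCD 1 to 3. The lowest FFD region was thus above the highest NCD region, with means of 496 ± 39.8 CPM in FFD and 358 ± 31.2 CPM in NCD (SD, n = 3 each). Its log2 fold change was 0.47 (SE 0.14, adjusted p = 0.0369 by edgeR).

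Rps29, a zinc-binding protein of the small subunit (chr12:69157722-69159186), was at 683, 742 and 753 CPM in FFD 1 to 3, against 499.8, 513 and 576 CPM in NCD 1 to 3. Its regions did not overlap between the diets, and its log2 fold change was 0.45 (SE 0.15, adjusted p = 0.0443 by edgeR). The third call in this subunit went the other way. Rps2, which sits where the message enters the ribosome (chr17:24718121-24721927), was at 915, 937 and 939 CPM in FFD 1 to 3, against 1327, 1250 and 1274 CPM in NCD 1 to 3. The FFD values lay close together and all below the NCD values, and the log2 fold change was -0.46 (SE 0.15, adjusted p = 0.0458 by edgeR). The probe for Rps2 is shared with Gm45855, so its counts cannot be split between the 2 genes.

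The calls for Rps14 and Rps29 each held in 2 of the 6 fits that left out a region, and were lost without FFD 2, FFD 3, NCD 1 or NCD 2, with adjusted p up to 0.162 for Rps14 and 0.186 for Rps29. After background subtraction their adjusted p were 0.0711 and 0.103, and with the ribosomal protein sum as scaling 0.0665 and 0.0783, in the same order of genes. The call for Rps2 held in 1 of those 6 fits, the fit without NCD 3, with adjusted p up to 0.154 in the others. It was also lost with TMM (adjusted p = 0.132), RLE (0.137), total counts (0.0936), negative probes (0.825), DESeq2 (0.0763) and in the unfiltered table (0.118).

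Other small subunit genes with high positive values did not pass. Rps15, which is needed for late maturation of the subunit, had a log2 fold change of 0.38 (adjusted p = 0.0702, edgeR), and all its FFD regions, at 358 to 409 CPM, were above its NCD regions, at 279 to 311 CPM. Rps19, the gene most often mutated in human Diamond-Blackfan anaemia, had 0.36 (adjusted p = 0.0982, edgeR), with 426 to 503 CPM in FFD and 332 to 391 CPM in NCD. Rps6, the substrate of the S6 kinases, was flat at 462, 512 and 530 CPM in FFD 1 to 3, against 475, 474 and 491 CPM in NCD 1 to 3. Rps18, near the median of all members, was at 234, 228 and 222 CPM in FFD 1 to 3, against 217, 217 and 214 CPM in NCD 1 to 3. Those ranges did not overlap, yet the difference was 0.08 on the log2 scale (adjusted p = 0.708, edgeR). Rps23, which lies at the decoding centre, had 0.09 with overlapping regions. The probes for Rps6 and Rps23 are shared with Rps6-ps4 and Gm8624, in that order.

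**Figure D3:**
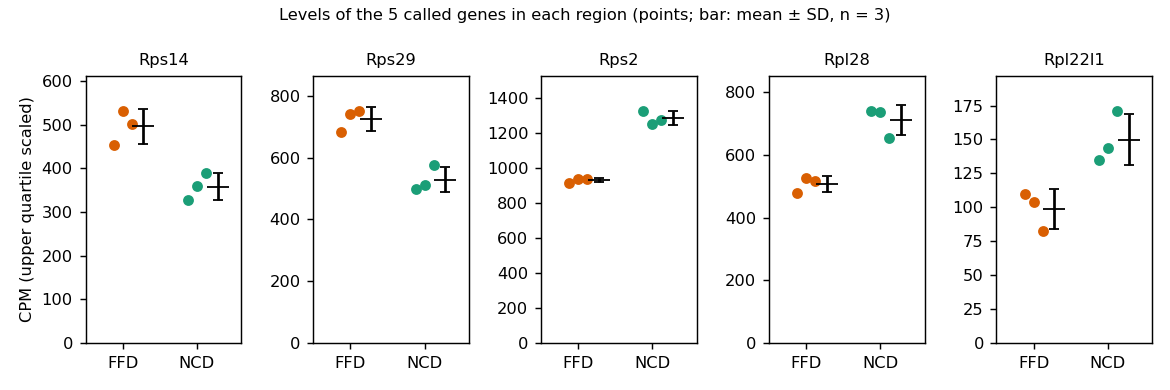
CPM on the vertical axis, from 0, of the 5 genes past the threshold in each of the 3 FFD and 3 NCD regions (points), with the mean and SD beside them. In none of the 5 panels do the diets overlap, with FFD above NCD for Rps14 and Rps29 and below it for Rps2, Rpl28 and Rpl22l1.

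The 40 large subunit genes had a median log2 fold change of 0.06, with 28 positive and 12 negative values. By edgeR 0 were higher and 1 was lower (5.94% and 11.1% of all tested genes). At an unadjusted p under 0.05 there were 5 higher and 2 lower (10.6% and 22.5%). DESeq2 called 3 higher and 0 lower (6.40% and 3.99%). All FFD regions were above all NCD regions in 12 of the 40 and below in 6, beside 12.2% and 24.5% of all tested genes. Rpl28, a large subunit protein (chr7:4792965-4794547), was at 477, 527 and 518 CPM in FFD 1 to 3, against 741, 737 and 655 CPM in NCD 1 to 3. The highest FFD region was below the lowest NCD region, and the log2 fold change was -0.49 (SE 0.15, adjusted p = 0.0322 by edgeR). Its probe is shared with Gm10051. The call held in 1 of 6 fits that left out a region and was lost without FFD 1, FFD 2, FFD 3, NCD 1 or NCD 2, with adjusted p up to 0.146. It was also lost with TMM (adjusted p = 0.0984), RLE (0.102), total counts (0.0769), negative probes (0.767), DESeq2 (0.0752) and in the unfiltered table (0.0839).

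The large subunit genes next to the threshold lay on both sides. Rpl24, whose mutation gives the Belly spot and tail mouse, was at 103, 125 and 125 CPM in FFD 1 to 3, against 159, 148 and 149.6 CPM in NCD 1 to 3, a log2 fold change of -0.37 (adjusted p = 0.0659, edgeR). In the opposite direction, Rpl8, a protein near the peptidyl transferase centre, had 0.39 (adjusted p = 0.0723, edgeR), Rpl19 had 0.37 (0.0854) and Rpl3 had 0.33 (0.102). None of these 4 overlapped between the diets. The probe for Rpl24 is shared with Gm9385, while those for Rpl8, Rpl19 and Rpl3 are each assigned to 1 gene. Rpl5 and Rpl11, which bind 5S ribosomal RNA and can hold Mdm2 to stabilise p53, had 0.18 and 0.11 with adjusted p of 0.371 and 0.620 (edgeR). Rpl10, which joins the subunit late in its maturation, was at 1098, 1362 and 1292 CPM in FFD 1 to 3, against 1148, 1193 and 1132 CPM in NCD 1 to 3. FFD 1 was below all 3 NCD regions there and the other FFD regions above them.

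Large subunit and stalk messages made a smaller part of the total relative to small subunit messages in FFD. The summed level of the large subunit and the stalk over that of the small subunit was 1.328, 1.338 and 1.322 in FFD 1 to 3, against 1.364, 1.375 and 1.381 in NCD 1 to 3. The ranges did not overlap, the means were 1.33 ± 0.00832 in FFD and 1.37 ± 0.00836 in NCD (SD, n = 3 each), and the value does not depend on the scaling of a region. The sums hold the shared probes.

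None of the 3 stalk genes passed in edgeR or DESeq2, and 0 had an unadjusted p under 0.05 in edgeR. Rplp0, the base of the stalk, was at 635, 724 and 703 CPM in FFD 1 to 3, against 618, 639 and 661 CPM in NCD 1 to 3, a log2 fold change of 0.10 (adjusted p = 0.652, edgeR). Rplp1 was at 718, 858 and 752 CPM in FFD 1 to 3, against 747, 715 and 826 CPM in NCD 1 to 3, with 0.03 on the log2 scale. Rplp2, whose probe is shared with Wdr89 and Rplp2-ps1, was at 247 to 255 CPM in FFD regions, against 265 to 286 CPM in NCD regions. All its FFD regions were below its NCD regions, by -0.15 on the log2 scale (adjusted p = 0.446, edgeR).

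The second copies carried the most negative value of all members. Rpl22l1, the paralogue of Rpl22 that is raised in mouse cells lacking Rpl22, lies on chr3:28805508-28807424. It was at 109.8, 104 and 82.3 CPM in FFD 1 to 3, against 135, 144 and 171 CPM in NCD 1 to 3. No FFD region reached an NCD region, with means of 98.7 ± 14.5 CPM in FFD and 149.9 ± 19.0 CPM in NCD (SD, n = 3 each), and the log2 fold change was -0.60 (SE 0.15, adjusted p = 0.0119 by edgeR). The call held in all 6 fits that left out a region. Its probe is shared with Gm15421. Rpl22 itself did not differ beyond its spread, at 319, 409 and 412 CPM in FFD 1 to 3, against 409.8, 392 and 374 CPM in NCD 1 to 3 (log2 fold change -0.04, adjusted p = 0.869, edgeR).

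The other 3 tested second copies also had negative values and did not pass. Rps27l, a p53 target, was at 152, 153 and 166 CPM in FFD 1 to 3, against 186, 157 and 170.0 CPM in NCD 1 to 3, a log2 fold change of -0.12. Rpl32l, at 24.8, 27.4 and 27.3 CPM in FFD 1 to 3, against 34.5, 36.6 and 25.4 CPM in NCD 1 to 3, had -0.26. Rpl7l1, at 27.4, 23.4 and 26.5 CPM in FFD 1 to 3, against 25.3, 23.6 and 29.8 CPM in NCD 1 to 3, had -0.04. Rpl32l and Rpl7l1 were near the limit, with 3 FFD regions and 2 NCD regions above it for Rpl32l, and 3 FFD regions and 1 NCD region for Rpl7l1.

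The untested second copies stood below the limit in nearly every region. Rpl10l, a testis paralogue, was at 7.79 to 9.53 CPM in FFD regions and 11.9 to 14.6 CPM in NCD regions, and Rpl3l, a muscle paralogue, at 12.8 to 14.5 CPM in FFD regions and 14.6 to 21.9 CPM in NCD regions. Rpl39l, best known from testis, was at 12.5 to 15.7 CPM in FFD regions and 17.0 to 25.7 CPM in NCD regions, with 1 NCD region above the limit. The lower FFD values of these 3 came with the lower negative probe level in FFD given above, and the part of that level in them was not tested.

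Of the 78 tested members, 27 have a probe that the target annotation also assigns to pseudogenes or other genes. All 3 lower calls were among these 27, and both higher calls were among the 51 whose probe is assigned to 1 gene. The median log2 fold change was 0.04 over the 27 shared targets and 0.13 over the 51 others. Dropping the shared targets from these calls, without a new fit, thus left 2 higher and 0 lower.

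Ribosomal protein promoters are known for a pyrimidine run at the transcription start, so the annotated starts of the members were read next. RefSeq promoter entries of GRCm38.p6 matched 63 of the 81 members. A C at the annotated start followed by at least 4 pyrimidines was found in 14 of the 63 (22.2%), against 3.01% of 27025 genes. The letters CCGGAAG, the core bound by ETS factors, were found on either strand of the 300-base entry in 25 of the 63 (39.7%), against 9.93% of genes, and the letters TATAAA in 7 (11.1%), against 15.7% of genes. The run and CCGGAAG can share letters, since CTTCCGG, the latter on the other strand, begins with a C and 4 pyrimidines. Their counts are thus not fully separate. A match is a description of the annotated window, and a start annotated a few bases away would miss the run. Among the 14 with the run were Rpl28, lower in FFD, Rpl15, with 0.34 on the log2 scale, and Rps10, with 0.11.

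Rps14 and Rps29, both higher in FFD, had no matched promoter entry, so no window is shown for them. The promoter windows of the 3 members lower in FFD are shown first, then the 3 longest pyrimidine runs among members of a subunit. Each runs 5′ to 3′ on the gene's strand, from 50 bases before the annotated start to 30 from the start on, and capitals mark the pyrimidine run at the start, TATAAA or CCGGAAG on either strand. The Rps2 entry starts inside the gene's span, downstream of its first annotated base.
Rpl22l1 (chr3:28805458-28805537, plus strand): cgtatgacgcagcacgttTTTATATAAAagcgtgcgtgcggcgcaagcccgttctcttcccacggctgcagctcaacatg
Rpl28 (chr7:4792915-4792994, plus strand): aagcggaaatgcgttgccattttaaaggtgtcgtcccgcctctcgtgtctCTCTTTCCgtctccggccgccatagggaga
Rps2 (chr17:24720013-24720092, plus strand): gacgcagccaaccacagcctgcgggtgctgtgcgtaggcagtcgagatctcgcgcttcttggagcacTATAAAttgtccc
Rpl15 (chr14:18270957-18271036, minus strand): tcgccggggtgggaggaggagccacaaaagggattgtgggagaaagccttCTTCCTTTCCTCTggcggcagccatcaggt
Rpl35 (chr2:39005102-39005181, minus strand): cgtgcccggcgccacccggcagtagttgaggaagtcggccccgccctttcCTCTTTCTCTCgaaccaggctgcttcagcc
Rps10 (chr17:27635215-27635294, minus strand): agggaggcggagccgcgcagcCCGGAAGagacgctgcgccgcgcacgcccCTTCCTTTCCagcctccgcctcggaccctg

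The Rpl22l1 window holds overlapping TATAAA letters on both strands. Its annotated start is a G, so no run was marked there, but a stretch of pyrimidines follows from the next base. The Rpl28 window holds a run and no TATAAA, and in the Rps2 window TATAAA lies after the annotated start.

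A few ribosomal proteins have names outside the rule. Fau, which encodes a ribosomal protein fused to a ubiquitin-like domain, had a log2 fold change of 0.26, and Rack1, a signalling scaffold on the small subunit, had 0.12. Rpl36al had 0.02, and none of these 3 passed in edgeR or DESeq2 or had an unadjusted p under 0.05 in edgeR. Rps27a, the member with a ubiquitin fusion, had 0.04.

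Beyond the ribosome itself, the other translation genes were read from lists fixed by name. Of 9 elongation and nascent chain factors none passed in edgeR or DESeq2, 0 had an unadjusted p under 0.05 in edgeR, and the median log2 fold change was 0.08. Eef1b2, an exchange factor for the elongation factor that brings tRNA, had 0.08, and Eef1d had 0.25. Of 27 initiation factors 4 were higher in FFD and 0 lower, with a median of 0.19 and with 5.94% higher and 11.1% lower over all tested genes, and DESeq2 called 3 higher and 0 lower. Eif3c, a core subunit of the scaffold that loads the small subunit, was at 117, 106 and 123 CPM in FFD 1 to 3, against 68.5, 71.1 and 80.3 CPM in NCD 1 to 3. The diets did not overlap, and its log2 fold change was 0.65 (SE 0.13, adjusted p = 0.0037 by edgeR). Eif4a1, the helicase that unwinds the start of messages, had 0.58 (adjusted p = 0.0270), Eif4h, which stimulates it, 0.40 (0.0448) and Eif2s1, the stress-regulated subunit of the factor that brings the first tRNA, 0.48 (0.0475), all by edgeR. The summed level of the 27 was 3920 to 4453 CPM in FFD regions and 3442 to 3756 CPM in NCD regions, without overlap.

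Of 41 tested ribosome biogenesis genes 3 were higher, 1 lower and 37 not called (5.94% and 11.1% over all tested genes), with a median of -0.01, and DESeq2 called 2 higher and 0 lower. Eif6, which keeps immature large subunits from joining, had 0.57 (adjusted p = 0.0114), Rrp1, a nucleolar processing protein, 0.52 (0.0107) and Mybbp1a, also nucleolar, 0.42 (0.0422), while Rcl1, which acts in making 18S ribosomal RNA, had -0.50 (0.0274), all by edgeR. Of 12 genes of RNA polymerase I and its factors, which make ribosomal RNA, 0 were higher and 1 was lower in edgeR (0 and 2 at an unadjusted p under 0.05, and 0 and 0 by DESeq2), with a median of -0.13. That gene, Taf1c, had -0.67 and was above the limit in 1 FFD and 1 NCD region only. Summed over the 14 genes of this list in the unfiltered table, the level was 433 to 439 CPM in FFD regions. In NCD regions the sum was 463 to 477 CPM, without overlap.

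Of 78 mitochondrial ribosomal proteins, which serve the separate ribosome of mitochondria, 2 were higher (Mrpl54, 0.58, and Mrpl16, 0.48) and 2 lower (Mrps22, -0.49, and Mrpl21, -0.44), with a median of 0.02. These shares lay below the 5.94% and 11.1% of all tested genes, and DESeq2 called 1 higher and 0 lower. Of 26 genes of mTORC1 signalling, the pathway that controls translation of ribosomal protein messages, 2 were higher and 1 lower, with a median of 0.09. These are 7.69% and 3.85%, beside 5.94% higher and 11.1% lower over all tested genes. DESeq2 called 1 higher and 1 lower. Summed over the 27 mTORC1 genes in the unfiltered table, the level was 1562 to 1634 CPM in FFD regions. In NCD regions the sum was 1711 to 1776 CPM, without overlap. Sesn3, an inhibitor of the pathway, was at 76.2, 89.8 and 73.9 CPM in FFD 1 to 3, against 230, 206 and 177 CPM in NCD 1 to 3. The diets were far apart, and the log2 fold change was -1.35 (SE 0.15, adjusted p = 1.98e-05 by edgeR). Rheb, the GTPase that activates mTORC1, had 0.41 (adjusted p = 0.0346) and Rragd, a lysosomal GTPase, 0.51 (0.0481), with Rragd above the limit in 2 FFD regions and in 0 NCD regions.

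**Figure D4:**
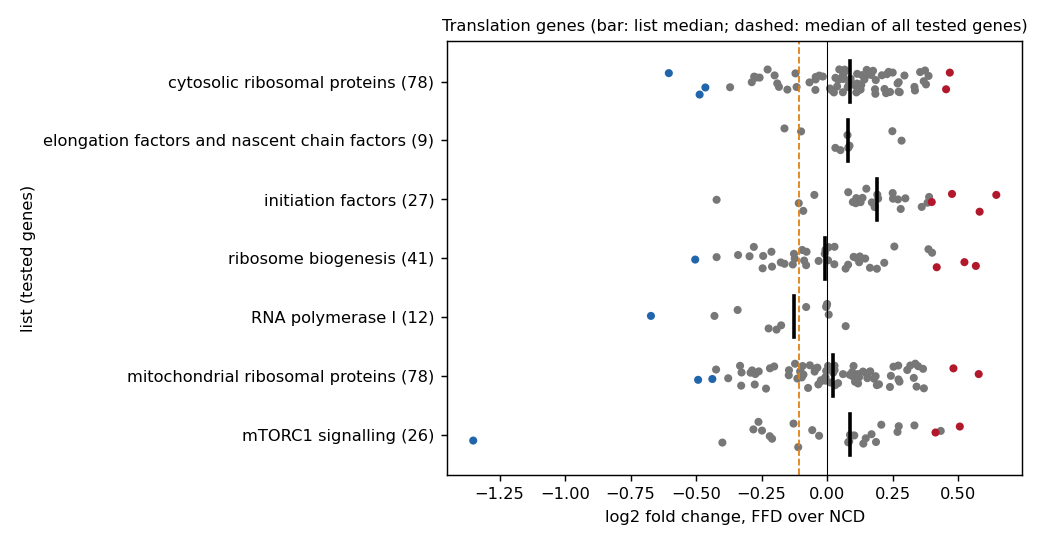
Log2 fold change, FFD over NCD, on the horizontal axis, for each tested gene (points, with a vertical scatter added for legibility) of the cytosolic ribosomal proteins and 6 lists of translation genes. Red points are higher in FFD and blue points lower by the test, black bars are list medians, from 0.19 for initiation factors to -0.13 for RNA polymerase I, and the dashed line is the median of all tested genes at -0.11.

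Markers of other cell types moved with the diet in the same areas. Over all tested genes the test called 5.94% higher and 11.1% lower. Of 9 lipid-associated macrophage markers 9 were higher. The summed level of that list was 1165 to 1689 CPM in FFD regions and 247 to 253 CPM in NCD regions. Of these 9, 2 were above the limit in all 6 regions. Trem2, Gpnmb, Mmp12, Lpl, Itgax and Clec7a were above it in 0 NCD regions. Of 15 Kupffer cell and macrophage markers 8 were higher and 2 lower, at 1871 to 2547 CPM in FFD regions and 1178 to 1539 CPM in NCD regions. Of these 15, 11 were above the limit in all 6 regions, Clec4f among them. Of 13 stellate cell and fibroblast markers 9 were higher and 0 lower. Their levels summed to 1286 to 2092 CPM in FFD regions and 738 to 752 CPM in NCD regions. Of these 13, 7 were above the limit in all 6 regions. Col1a1, Col1a2, Acta2, Pdgfrb and Des were above it in 0 NCD regions. Of 9 endothelial markers 1 was higher (Lyve1, above the limit in 0 NCD regions) and 2 lower (Dnase1l3 and Kdr). Their sums overlapped, at 542 to 787 CPM in FFD regions and 755 to 814 CPM in NCD regions. Of 5 lymphocyte markers 0 were higher and 1 lower (Ms4a1) in edgeR, with 0 and 2 at an unadjusted p under 0.05 and 0 and 1 by DESeq2. Their sums were 152 to 167 CPM in FFD regions and 180 to 239 CPM in NCD regions, without overlap, and no lymphocyte marker was above the limit in all regions. No marker was at 0 counts. The part of these cells in the ribosomal protein values was not tested.

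The sign of small differences depended on the scale, because each scaling sets its own 0. With TMM scaling the median of all tested genes was -0.01 and that of the members 0.19, with 5 members higher and 1 lower, against 8.69% and 6.82% of all tested genes. RLE size factors gave 4 higher and 1 lower (8.64% and 6.83% of all tested genes), and total counts 9 higher and 1 lower (8.62% and 4.61%). The members higher with total counts were Rps14, Rps29, Rpl8, Rps15, Rpl41, Rpl19, Rps19, Rpl3 and Rpl15, and the lower was Rpl22l1. Scaled on negative probes, 37 members were higher and 0 lower, with 27.7% of all tested genes higher and 1.57% lower, a member median of 0.48 and a median of all genes of 0.28. Of those 37, 20 were small subunit and 17 large subunit genes, while Rpl22l1 had -0.21 (adjusted p = 0.395), Rpl28 -0.09 (0.767) and Rps2 -0.07 (0.825) by edgeR.

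Scaled on the summed ribosomal protein counts, so that each member is set against the others, 0 members were higher and 4 lower (Rpl22l1, Rpl28, Rps2 and Rpl24), against 4.12% and 14.1% of all tested genes. Under each of these 6 scalings the median of the members was above that of all tested genes. The gap was 0.19 on the log2 scale in the upper quartile fit. A scaling moves all genes of a region alike, so the gap could hardly differ between the 6. After subtraction of the negative probe level the median was -0.00 for the members and -0.03 for all tested genes, a gap of 0.03. Positive values were left in 39 of the 78 members, against 57 with the upper quartile. In this fit 0 members were higher and 4 lower (5.12% and 5.49% of all tested genes). Without the filter, 2 of 81 members were higher and 1 lower, against 4.70% and 8.24% of 19951 genes. Of all calls, the share higher in FFD was 34.8% with the upper quartile, 56.0% with TMM, 55.9% with RLE, 65.1% with total counts, 94.6% with negative probes and 22.6% with the ribosomal protein sum.

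**Figure D5:**
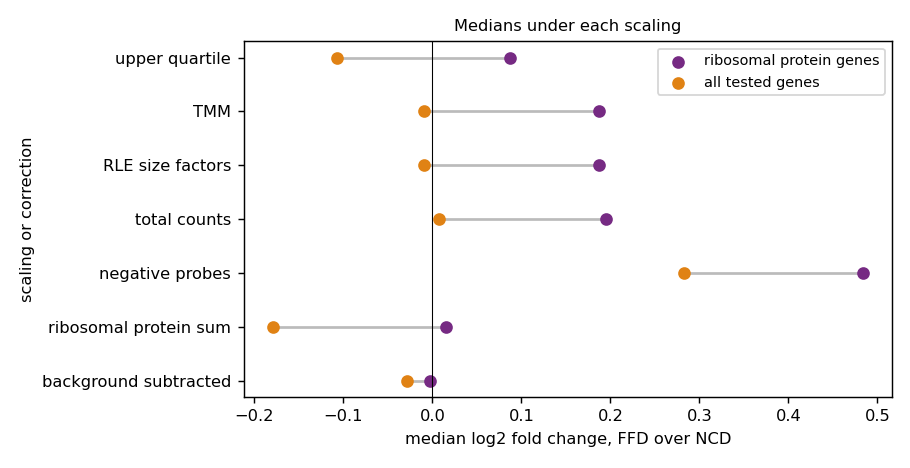
Median log2 fold change, FFD over NCD, of the ribosomal protein genes (purple) and of all tested genes (orange) on the horizontal axis, under 6 scalings and after background subtraction. The purple point lies to the right of the orange point in each row, by a gap that can hardly differ between the 6 scalings. The points are at 0.48 and 0.28 with negative probes. After background subtraction they are at -0.00 and -0.03, a gap of 0.03 against 0.19 with the upper quartile.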

How the data were processed

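Probes were counted in 6 liver areas, 3 FFD and 3 NCD, and the control library without template was not used here. The deposited table holds expected counts per target after the authors' probe quality control, whole numbers for nearly all targets, and 1 probe for each of the 81 members. A deposited filtered table of 13095 genes was tested, and its filter rule is not given in the sources used here. Values of the deposited Q3 table are a signal, each region's counts over their 75th percentile. Nuclei and reads are counts per the file headers, per the file headers saturation is a percent, and region measures such as area are other quantities per the file headers. The submitters' processing notes name GRCm38 and edgeR.

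Counts were rounded and tested with edgeR 4.0.16 quasi-likelihood (R 4.3.3) on a model of diet alone. Libraries were scaled to their upper quartile, and p was adjusted by Benjamini-Hochberg across the whole table, with 0.05 as the threshold. Replicates varied with a biological coefficient of 12.0%. CPM is computed on the scaled library sizes. Levels of different probes are not ranked against each other. Fold changes are FFD over NCD on the log2 scale, and the standard error (SE) is approximate, the absolute log2 fold change over the square root of F. The p-values measure the spread between areas, since no label ties an area to a mouse. All 81 members matched RefSeq.

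Named by rule were the members past the threshold, the 2 nearest the median among small subunit genes and among large subunit and stalk genes, every second copy and stalk gene, and up to 3 genes per direction of each other list, or the first 2 where none passed. Not every gene so chosen is reported here. Members near the threshold, the ubiquitin fusion genes and those with a known role (Rps6, Rps10, Rpl5, Rpl10, Rpl11, Rpl15, Rpl22) were added after their values were seen, as was Rpl32l among the second copies. The members and lists were chosen with earlier results of these data known. Alternatives were 4 other scalings, DESeq2 1.42.0, limma 3.58.1 on the Q3 signal, robust edgeR, other filters, background subtraction, shared targets left out and each area left out. The ribosomal protein sum as scaling and the replicate block were added after seeing the data. The fits were tested on simulated data. Areas number 3 per diet, so no area was tested as an outlier.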

Additional observations from a re-analysis of the deposited data

How the results depend on the processing

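With the upper quartile, 2 members were higher and 3 lower with a median of 0.0868, and no p was computed for the median. The counts were 5 and 1 with TMM, 4 and 1 with RLE and 9 and 1 with total counts. They were 37 and 0 with negative probes, 7 and 0 with DESeq2 and 2 and 1 in the unfiltered table. After background subtraction they were 0 and 4, and with the ribosomal protein sum also 0 and 4. Dropping shared targets from the upper quartile calls, without a new fit, left 2 and 0. Of all tested genes, DESeq2 called 6.40% higher and 3.99% lower, and edgeR without the filter 4.70% and 8.24%. The median was 0.187 with TMM, RLE and DESeq2, 0.195 with total counts, 0.484 with negative probes and -0.0023 after background subtraction. Without 1 region each time, 0 to 3 members were higher and 1 to 3 lower, with a median of 0.0475 to 0.143. In the same fits 396 to 853 of all 13095 tested genes were higher and 617 to 1778 lower. The causes were not tested, and a fit without a region also has fewer samples. The numbers that the segment comments give the areas do not pair them (correlations of deviations 0.032, 0.033 and 0.086), and the replicate block also gave 2 higher and 3 lower. The 5 called members had 1 sign in all 18 alternatives, and Rpl22l1 passed in 16 of them, Rps14 and Rps29 in 12, and Rpl28 and Rps2 in 7. Rpl22l1 did not pass with negative probes (adjusted p = 0.395) or DESeq2 (0.0546).

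Members that did not pass changed sign in some settings. After background subtraction Rps23 had -0.00569, Rps18 -0.00569, Rplp1 -0.0789 and Rpl7l1 0.200. Rpl7l1 had 0.0526 with TMM, 0.0520 with RLE, 0.0777 with total counts, 0.344 with negative probes, 0.0602 with DESeq2, 0.0124 in the unfiltered table and -0.115 to 0.0741 without 1 region each time. With negative probes Rps27l had 0.273 and Rplp2 0.242. Rplp1 had -0.0463 with the ribosomal protein sum and -0.0527 to 0.0875 without 1 region each time. The summed share of counts was higher in FFD under every denominator run and without each region, by 0.295 to 0.560 percentage points. Rpl3l, Rpl10l and Rpl39l were below or near the detection limit, which the negative probes set.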
